A study of Homo sapiens with 6 samples.

Results

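Retained introns of 500 to 2000 nt were followed in SKNBE2 cells, a human neuroblastoma line that carries amplified MYCN. An intron belonged to the set when it was 500 to 2000 nt long, had at least 10 junction reads and a coverage score of LOW or better in all 6 libraries, and had a mean retention of 5% to 95% over the 3 Control libraries. This left 1081 introns in 968 genes, out of 192965 introns in the table, 60993 of that length and 29155 of those with the required reads. Of the remaining introns with enough reads, 28023 lay under 5% in Control and 51 above 95%. The Control percents thus chose the members, and they are given as a description. The 3 DFMO libraries came from SKNBE2 cells kept in 250 µM DFMO for 4 days, and the 3 Control libraries from SKNBE2 cells labelled only as Control. DFMO (difluoromethylornithine) blocks ornithine decarboxylase and with it the first step of polyamine synthesis. Both groups are the same MYCN-amplified line, so each is a model of 1 tumour only. The labels do not say that the replicates were separate cultures, so p values speak only for these libraries, whose spread may be technical. For a typical intron, the limma test used a spread pooled over introns of like expected counting variance. Its p value therefore does not measure that intron's own spread.

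Event reads per library, summed over all splicing events, ran from 77648922 to 103250467. Of 13 markers of noradrenergic neuroblasts, 12 had a measurable junction-read level, with CHGA at 7.14, 7.13 and 7.12 in DFMO libraries and 6.87, 6.91 and 6.94 in Control libraries on the log2 scale of that level. Of 10 markers of mesenchymal-type neuroblastoma cells or fibroblasts, TWIST1 and THY1 were measured, and of 5 blood cell markers none was. The set as a whole had a median length of 1048 nt, and a median member had 87.3 junction reads per library.

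Most introns are removed while the transcript is still being made. An intron that stays in a polyadenylated RNA can hold that RNA in the nucleus, expose it to decay through premature stop codons, or be spliced later on demand, and such delayed introns are often called detained introns. A read across the boundary of an exon and its intron does not always come from an intron kept whole. A transcript that ends inside the intron at an early polyadenylation site gives reads over the upstream edge alone, an internal start gives reads over the downstream edge alone, and an alternative splice site moves an edge. The percent used here weighs the mean of the reads over both edges against the reads that join the exons on either side, so all of these forms enter it.

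The edges of the introns on which the results turn are printed 5′ to 3′, taken from GENCODE transcripts (release 29, GRCh38), with 10 exonic and 20 intronic bases at an upstream edge and 20 intronic and 10 exonic bases at a downstream edge. The capitals mark the first or last pair of intron bases. They are shown for called introns with a known edge in an annotated transcript, since those letters are what an edge read crosses.
NFATC4 upstream edge (chr14:24376869-24376898, plus strand): ctggaggaagGTgggtgtgggactgggggc
NFATC4 downstream edge (chr14:24377618-24377647, plus strand): caactgcccctcctttacAGtgagtgagat
METAP1D upstream edge (chr2:172063851-172063880, plus strand): gagtttaaagGTggcgtctcaccaagcctc
PAXBP1 upstream edge (chr21:32759757-32759786, minus strand): ttaaagacagGTagggcagatcaacttctt
RET upstream edge (chr10:43126713-43126742, plus strand): aaactctatgGTagaatttcccatgcattt
SELENOS upstream edge (chr15:101272744-101272773, minus strand): taagaatcttGTtagtgtcacttttgacat
COQ4 upstream edge (chr9:128323138-128323167, plus strand): taccgccacgGTaaggccgcccgcgcctcg
DVL1 upstream edge (chr1:1339342-1339371, minus strand): ccccgctacgGTacgagtccctgctccagc
TRIM3 upstream edge (chr11:6450531-6450560, minus strand): ttcagtgaagGTcagtgtcttccctccctc
TRIM3 downstream edge (chr11:6449437-6449466, minus strand): ctagccccttcccccgccAGgtgtacagtg
UBE3B upstream edge (chr12:109489995-109490024, plus strand): tgtgctgcagGTctgtgactcctgcccccc
CD27-AS1 downstream edge (chr12:6448728-6448757, minus strand): agtcttgctttgtcgcccAGgttggagtgc

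For PCNX3 and AP4B1, the transcripts hold no base of the intron, and the joined exon ends are shown instead, the last 15 bases of the upstream exon in lower case and the first 15 of the downstream exon in capitals. A spliced read crosses the point where the case changes.
PCNX3 joined exons (chr11:65620952-65622259, plus strand): ctggagatcccggagGAGCAGACACTGATG
AP4B1 joined exons (chr1:113902848-113904619, minus strand): ccagcgagtgattagGTACATGACTCAAGG

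In 5 of these introns (RET, SELENOS, COQ4, TRIM3 and UBE3B), an annotated transcript end follows one of the commonest polyadenylation hexamers, AATAAA or ATTAAA, which is given in capitals. One of these hexamers, searched on the transcript strand only, stood in the last 40 bases of 26.6% of 186874 annotated transcript ends. In UBE3B, no annotated transcript that ends inside the intron has its last exon over the upstream edge. Upstream-edge reads of UBE3B therefore cannot be tied to the signal printed for it.
RET (chr10:43127475-43127504, plus strand): cttttgtctttgATTAAAtactagaaattt
SELENOS (chr15:101272199-101272228, minus strand): tgtctatcaaacATTAAAtagctttttatt
COQ4 (chr9:128323545-128323574, plus strand): gtaaatgctcAATAAAtgtttgctggatgt
TRIM3 (chr11:6450169-6450198, minus strand): cctcaagcacaagtgggaATTAAAtggaag
UBE3B (chr12:109490689-109490718, plus strand): tttaactttattATTAAAgaatttctaacc

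All 1081 members were introns annotated in GENCODE, and 1040 of them lay in protein-coding genes. In 693 members the intron lay between coding parts in every coding transcript that uses it, in 101 within the 5′ UTR and in 31 within the 3′ UTR. An annotated transcript kept the intron whole for 212 members (19.6%), against 770 of 1329 shorter introns chosen by the same rule (57.9%). An annotated transcript ended inside 450 members (41.6%) and started inside 382 (35.3%), and at least 1 annotated end, start or alternative splice site lay inside 789 (73%). Whole intron sequence could be read from transcripts for 212 members and the upstream edge for 609, so a comparison of base composition over the set was void. Of those 609 upstream edges, 595 opened with GT, 9 with GC and 5 with AT, and 14 opened with the letters of a minor, U12-type intron. Of the 558 readable downstream edges, 553 closed with AG. A snoRNA or scaRNA gene lay in 4 members and a miRNA gene in another count of 4.

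Retention of most members was low. The median over members was 9.67% for the DFMO mean and 9.43% for the Control mean. In Control, 577 members were under 10%, 379 at 10% to 30%, 82 at 30% to 70% and 43 above 70%. The median SD between libraries of one group was 2.57 points for DFMO and 2.98 points for Control. The difference, DFMO minus Control, ran from -20.9 to 29.2 points, and 90% of members lay between -8.53 and 7.62. Its median over all 1081 members was -0.55 points, and over the 981 tested members -0.16, beside 0.33 over all 3684 tested introns of every length. Because members were picked on Control alone, introns that were high in Control by counting error were favoured, which lowers the medians of the members. The 3684 introns were picked on the mean of all 6 libraries, so their 0.33 is no like comparison.

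Differences were tested with limma on the log2 odds of retention over all 3684 introns of any length whose mean over the 6 libraries was 5% to 95%, and 981 members were among them. A member was called when its Benjamini-Hochberg adjusted p over all 3684 introns was under 0.05 and its group means differed by at least 10 points. With DFMO, 12 members were called higher and 15 lower, or 1.22% and 1.53% of those tested, beside 1.74% and 2.06% of introns of every length. A member under 10% in Control cannot fall by 10 points, and 480 of the tested members lay there. The shares called higher and lower are therefore not comparable with each other. Of the 15 called lower, 11 were among the 82 tested members at 30% to 70% in Control. With no minimum size, 28 members passed the adjusted p upwards (2.85%, beside 4.40% of all introns) and 40 downwards (4.08%, beside 4.18%). The 3 DFMO libraries all lay above the 3 Control libraries in 87 tested members (8.87%, beside 13.2%), and all below them in 122 (12.4%, beside 11.5%). Introns under 5% in Control, which the member rule leaves out, entered the 3684 only when their DFMO mean was higher. The upward shares of all introns are therefore no like comparison, here or below. Among tested introns chosen by the member rule, 1.28% of those under 500 nt and 4.87% of those over 2000 nt passed upwards. The calls rest on a variance shared across introns: without the variance trend, limma called 0 members, with 125 members at an unadjusted p under 0.05. With a quasi-binomial model in its place, 16 members were higher and 21 lower. Leaving out single libraries gave 7 to 18 called higher and 9 to 17 lower, with the lowest counts, 7 and 9, without DFMO replicate 2, and 9 lower also without Control replicate 1.

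**Figure D1:**
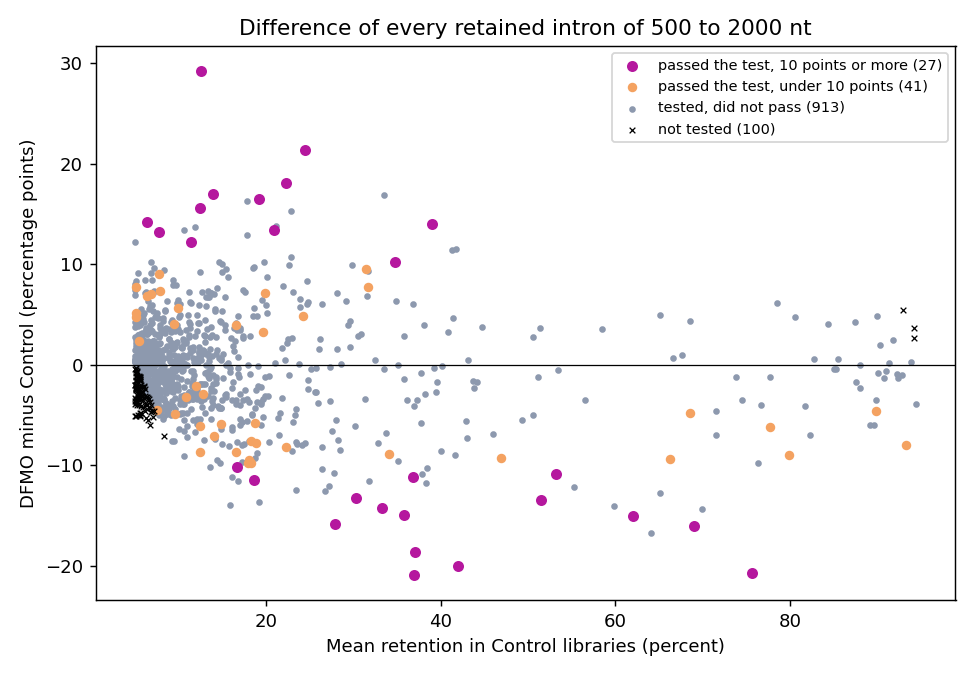
Difference in mean retention (DFMO minus Control, percentage points) against mean retention in Control (percent) for all 1081 introns, 1 point each, coloured by the outcome of the limma test. The 27 called introns lie 10 points or more from 0 at all Control levels up to 75.6%, and the 100 crosses are members that were not tested.

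RET is the receptor tyrosine kinase for the glial-derived neurotrophic factor family. Its 1389-nt intron (chr10:43126723-43128111) is the one before the last exon, and the known short and long RET isoforms part here: the short one reads on past the exon edge printed above and ends in the intron, whereas the long one joins the next exon. Retention was 53.3%, 54.4% and 51.4% in DFMO libraries and 41.5%, 37.1% and 38.3% in Control libraries, with no overlap (14.1 points, log2 odds 0.82 ± 0.12 SE, limma adjusted p = 5.75e-09). Upstream-edge reads numbered 1065 in DFMO and 986 in Control libraries, downstream-edge reads 338 and 190, and reads joining the exons 622 and 922. Per 1000000 event reads, the joining reads were lower with DFMO (log2 difference -0.49, limma adjusted p = 3.19e-06) and the edge reads higher (0.22, limma adjusted p = 0.0480). In the same gene, 2 cassette exons were called higher, one of 242 nt (93.1% ± 1.70 in DFMO, 82.3% ± 1.39 in Control; limma adjusted p = 0.00560) and one of 196 nt (92.7% ± 1.78 in DFMO, 81.3% ± 1.66 in Control).

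NFATC4, a calcineurin-regulated transcription factor, rose through reads on both edges. Its 759-nt intron (chr14:24376879-24377637), kept whole by 8 annotated transcripts, had 30.1%, 30.6% and 23.4% in DFMO libraries against 10.9%, 15.1% and 11.4% in Control libraries. The groups did not overlap (15.6 points, log2 odds 1.43 ± 0.28 SE, limma adjusted p = 2.94e-05). Reads over the upstream edge were 131 in DFMO and 45 in Control libraries and over the downstream edge 167 and 57. Joining reads were 357 in DFMO and 337 in Control libraries. The edge reads rose (log2 difference 0.85, limma adjusted p = 2.10e-09), and the joining reads did not pass the test (0.04, adjusted p = 0.867).

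PAXBP1, which binds PAX transcription factors, had 3 introns called higher. The 507-nt member (chr21:32759270-32759776) had 33.7%, 38.8% and 34.5% in DFMO libraries and 16.4%, 22.3% and 18.8% in Control libraries (limma adjusted p = 8.24e-04). It was also the member called higher when both edges had to carry balanced reads in all libraries. The neighbouring introns of 3726 and 4011 nt lie outside the length range. The 3726-nt intron had 38.7% ± 6.11 in DFMO and 22.4% ± 5.77 in Control libraries. The 4011-nt intron had 57.7% ± 8.07 in DFMO and 24.4% ± 3.02 in Control libraries. A pair of alternative donors of the exon between those introns differed too, and the donor 17 nt further downstream was used in 76.99% ± 2.80 of DFMO and 50.8% ± 3.28 of Control reads (limma adjusted p = 0.00591). The 4011-nt intron opens at the other donor of the pair, so reads of the longer exon cross its edge and these events share reads.

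Of the other members called higher, ZC3HAV1L, a relative of a zinc-finger antiviral gene, had 24.5%, 22.6% and 14.7% in DFMO libraries and 8.63%, 6.06% and 4.35% in Control libraries (1868 nt, limma adjusted p = 1.88e-04). Its joining reads were lower, with 183 in DFMO and 337 in Control libraries. METAP1D, a mitochondrial methionine aminopeptidase, had 39.7%, 57.1% and 40.6% in DFMO libraries and 27.8%, 33.3% and 12.2% in Control libraries (1743 nt). AP4B1, a subunit of a vesicle adaptor complex, had 44.4%, 28.2% and 19.96% in DFMO libraries and 17.9%, 10.5% and 13.4% in Control libraries (1742 nt). In these genes the groups did not overlap, but the DFMO libraries of METAP1D and AP4B1 differed widely from each other.

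PCNX3, a multipass membrane protein, had 44.1%, 28.4% and 48.7% in DFMO libraries and 17.95%, 25.2% and 23.8% in Control libraries (1278 nt), nearly all of it from the downstream edge (122 reads in DFMO, 58 in Control). KIAA1429, also named VIRMA, is part of the complex that methylates adenosines in mRNA, and its 532-nt intron had 34.3% ± 5.68 in DFMO and 20.9% ± 4.29 in Control libraries. PSD, an exchange factor of ARF GTPases, had 21.1% ± 6.12 in DFMO and 7.82% ± 3.48 in Control libraries (1193 nt). Another PSD intron, of 787 nt, missed the set narrowly with a Control mean of 4.99% ± 5.64 and had 27.7% ± 7.60 in DFMO libraries. MAPK11, a stress-activated kinase, had 23.7% ± 7.28 in DFMO and 11.4% ± 3.66 in Control libraries (565 nt). LDB1, an adaptor of LIM-domain transcription factors, had 45.03% ± 4.195 in DFMO and 34.8% ± 7.07 in Control libraries (705 nt), with its lowest DFMO library at 40.2% and its highest Control library at 39.6%. Limma adjusted p ran from 0.0193 to 0.0428 over these 5 introns. Each of these calls ended without some single library, at differences from 6.14 (LDB1) to 16.3 (PCNX3) points. PCNX3 lost it without DFMO replicate 1 or 3 or Control replicate 1, PSD without DFMO replicate 1 or 2 or Control replicate 3, and MAPK11 without DFMO replicate 2 or Control replicate 1 or 2. KIAA1429 kept it only without DFMO replicate 3 or Control replicate 1, and LDB1 only without DFMO replicate 1 or Control replicate 3. METAP1D and AP4B1 lost the call without 2 single libraries each (METAP1D without DFMO replicate 2 or Control replicate 3, AP4B1 without DFMO replicate 1 or Control replicate 2).

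**Figure D2:**
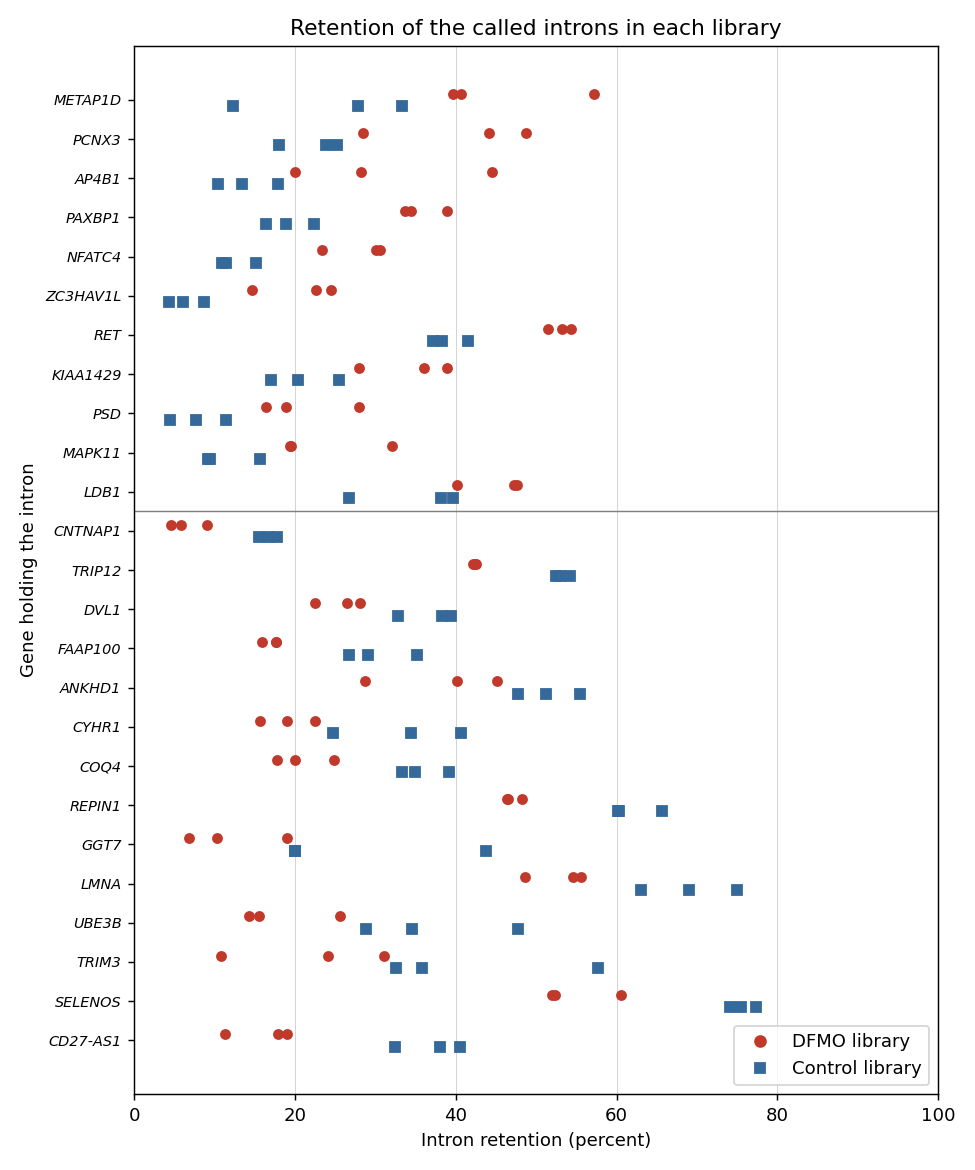
Retention (percent) of 25 of the called introns in each DFMO library (circles) and each Control library (squares), 11 higher above the line and 14 lower below it, ordered by size of the difference. In no intron do the DFMO and Control libraries overlap, and the widest spread within a group is that of the DFMO libraries of AP4B1 and of the Control libraries of GGT7 and TRIM3.

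Several members that fell with DFMO lie where a gene has a known or annotated early end. LMNA codes for the nuclear lamins A and C, and lamin C mRNA reads on past the exon edge into this intron, whereas lamin A mRNA joins the next exon. The 744-nt LMNA intron (chr1:156137744-156138487) had 55.6%, 54.6% and 48.6% in DFMO libraries against 74.9%, 68.98% and 63.0% in Control libraries (-16.05 points, log2 odds -0.99 ± 0.17 SE, limma adjusted p = 3.59e-07). All DFMO values lay below all Control values. The upstream edge carried 734 reads in DFMO and 946 in Control libraries, the downstream edge 5 and 3, and the joined exons 317 and 212. Per 1000000 event reads, the edge reads fell (log2 difference -0.34, limma adjusted p = 0.00413) and the joining reads rose (0.39, limma adjusted p = 0.00952). GENCODE places 4 transcript ends inside it, and 1 transcript keeps it whole.

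SELENOS, a selenoprotein of the endoplasmic reticulum that takes part in the removal of misfolded proteins, showed the same pattern of edges. Its 1118-nt intron (chr15:101271646-101272763) lies in the 3′ UTR of every coding transcript that uses it, and 2 annotated transcripts end inside it. Retention was 51.96%, 60.5% and 52.3% in DFMO libraries and 75.5%, 74.1% and 77.3% in Control libraries (-20.7 points, log2 odds -1.34 ± 0.20 SE, limma adjusted p = 5.75e-09). Upstream-edge reads were 568 in DFMO and 657 in Control libraries, and joining reads 239 and 105. The joining reads rose (log2 difference 0.62, limma adjusted p = 1.25e-05), and the edge reads did not pass (-0.16, adjusted p = 0.334).

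COQ4 takes part in the synthesis of coenzyme Q. Its 1995-nt intron (chr9:128323148-128325142) had 24.8%, 20% and 17.8% in DFMO libraries and 39.2%, 34.9% and 33.3% in Control libraries (-15.0 points, log2 odds -1.09 ± 0.18 SE, limma adjusted p = 1.72e-07). The groups did not overlap. Upstream-edge reads came to 465 in DFMO and 502 in Control libraries, with 1 and 0 on the downstream edge, while joining reads came to 864 and 452. The joining reads rose (log2 difference 0.75, limma adjusted p = 2.67e-12), as did the junction-read level of the whole gene (0.74 ± 0.04 SE, limma adjusted p = 6.20e-06), and 2 annotated transcripts end in this intron.

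CD27-AS1, a noncoding RNA that overlaps CD27 on the other strand, had the largest fall. Its 1603-nt intron (chr12:6448738-6450340) had 17.9%, 11.3% and 18.96% in DFMO libraries and 40.5%, 32.5% and 38.1% in Control libraries (-20.9 points, log2 odds -1.63 ± 0.34 SE, limma adjusted p = 1.34e-04). Reads lay on the downstream edge, with 90 in DFMO and 109 in Control libraries, and joining reads were 249 and 96. An alternative acceptor that adds 20 nt to the exon on this side was used in 13.2% ± 3.55 of DFMO and 28.9% ± 4.33 of Control reads (limma adjusted p = 0.0319), and it shares reads with this edge. The libraries were stranded, but the sources used here do not say that reads were assigned by strand, so reads of the antisense partner cannot be told apart here, nor for ANKHD1 (SRA1), CNTNAP1 and REPIN1, whose introns an antisense gene also overlaps.

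DVL1, a dishevelled protein of Wnt signalling, had an alternative donor in place of an early end. Its 708-nt intron (chr1:1338654-1339361) had 22.5%, 28.1% and 26.5% in DFMO libraries and 38.3%, 39.3% and 32.9% in Control libraries (limma adjusted p = 0.00295), with 333 upstream-edge reads in DFMO and 497 in Control libraries and 3 and 2 downstream. A donor 75 nt further into the intron was used in 33.6% ± 2.79 of DFMO and 46.8% ± 1.46 of Control reads (limma adjusted p = 0.0271). The 2 events share the upstream edge.

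REPIN1, a zinc-finger DNA-binding protein, and CNTNAP1, an adhesion protein of axons, were the members called lower when both edges had to be balanced in all libraries. The 891-nt REPIN1 intron (chr7:150369869-150370759) had 48.2%, 46.5% and 46.3% in DFMO libraries and 65.6%, 60.3% and 60.2% in Control libraries (log2 odds -0.88 ± 0.15 SE, limma adjusted p = 9.59e-07). Its edge reads were fewer on both sides, with 486 upstream and 247 downstream in DFMO libraries and 734 and 394 in Control libraries. The next REPIN1 intron, of 343 nt, fell alongside it, with 41.6% ± 1.35 in DFMO and 56.7% ± 1.68 in Control libraries. The 673-nt CNTNAP1 intron had 5.79%, 9.01% and 4.59% in DFMO libraries and 17.7%, 15.5% and 16.8% in Control libraries (limma adjusted p = 0.00362). A second CNTNAP1 member of 507 nt did not pass, at 5.10% ± 3.10 in DFMO and 6.30% ± 2.09 in Control libraries.

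Other members called lower were in TRIM3, a brain-enriched ubiquitin ligase (21.98% ± 10.3 in DFMO, 42.0% ± 13.7 in Control), UBE3B, another ubiquitin ligase (18.4% ± 6.20 in DFMO, 37.03% ± 9.72 in Control), and TRIP12, of the same enzyme class (42.3% ± 0.22 in DFMO, 53.2% ± 0.88 in Control). GGT7, of the gamma-glutamyltransferase family, had 10.2%, 6.87% and 19.01% in DFMO libraries and 20%, 43.8% and 19.98% in Control libraries. Its highest DFMO library lay close below its lowest Control library. CYHR1, a cysteine- and histidine-rich protein, had 19.02% ± 3.40 in DFMO and 33.3% ± 8.03 in Control libraries. ANKHD1, an ankyrin-repeat protein, had 37.97% ± 8.45 in DFMO and 51.5% ± 3.85 in Control libraries. FAAP100, of the Fanconi anaemia core complex, had 17.1% ± 1.039 in DFMO and 30.3% ± 4.36 in Control libraries. Limma adjusted p ran from 0.00820 to 0.0364 over these 7. Each lost its call without some single library. For TRIM3 this was DFMO replicate 3 or Control replicate 1, for ANKHD1 DFMO replicate 2 or Control replicate 1, for UBE3B DFMO replicate 1 or 2 or Control replicate 1, and for GGT7 DFMO replicate 1 or 2 or Control replicate 2. CYHR1 kept it only without DFMO replicate 1 or Control replicate 3 and FAAP100 only without DFMO replicate 3 or Control replicate 3, while TRIP12 lost it without any of the 6. DVL1 lost it without DFMO replicate 1 or Control replicate 2 and CNTNAP1 without DFMO replicate 1 or 3 or Control replicate 1. An acceptor 81 nt into the TRIP12 intron shares its downstream edge and did not pass (51.5% ± 6.85 in DFMO, 60.8% ± 8.48 in Control, limma adjusted p = 0.332). A donor 196 nt into the FAAP100 intron did not pass either (47.3% ± 5.90 in DFMO, 55.8% ± 5.02 in Control, limma adjusted p = 0.463).

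The edge that carried the reads set the members called lower apart in description. Members were sorted by the share of edge reads on the upstream edge, pooled over the 6 libraries, a split chosen after the data had been seen: at least 90% counted as upstream only and at most 10% as downstream only. Of all members, 750 (69.4%) had reads on both edges, 173 (16%) on the upstream edge only and 158 (14.6%) on the downstream edge only. Of the 15 called lower, 7 were upstream only (DVL1, FAAP100, CYHR1, COQ4, LMNA, UBE3B, SELENOS) and 3 downstream only (TRIP12, ANKHD1, CD27-AS1), and all 10 of them had an annotated end, start or alternative splice site inside the intron. Over all members, such an annotation lay inside 87.3% of the upstream-only, 87.3% of the downstream-only and 66.7% of the both-edge introns. Of the 12 called higher, 10 had reads on both edges, and neither of the others, PCNX3 among them, had an annotation of this kind inside. By class, 10 of 674 tested both-edge members were called higher and 5 lower. The counts were 1 and 7 of 162 upstream-only members, and 1 and 3 of 145 downstream-only members. These counts were not matched for Control level, which limits how far a member can fall. Mean Control retention was 18.6% for upstream-only, 14.9% for downstream-only and 15.7% for both-edge members. In 598 members the balance test of the quality text gave p under 0.05 in at least 1 library. With such introns left out, 417 members were tested, and 1 was called higher and 2 lower. Among shorter introns chosen by the same rule, 83.6% had reads on both edges, as did 39 of their 44 called lower. Among introns over 2000 nt, 45.2% had reads on both edges. Of their 16 called lower, 9 were upstream only and 3 downstream only, so this pattern was not particular to 500 to 2000 nt.

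**Figure D3:**
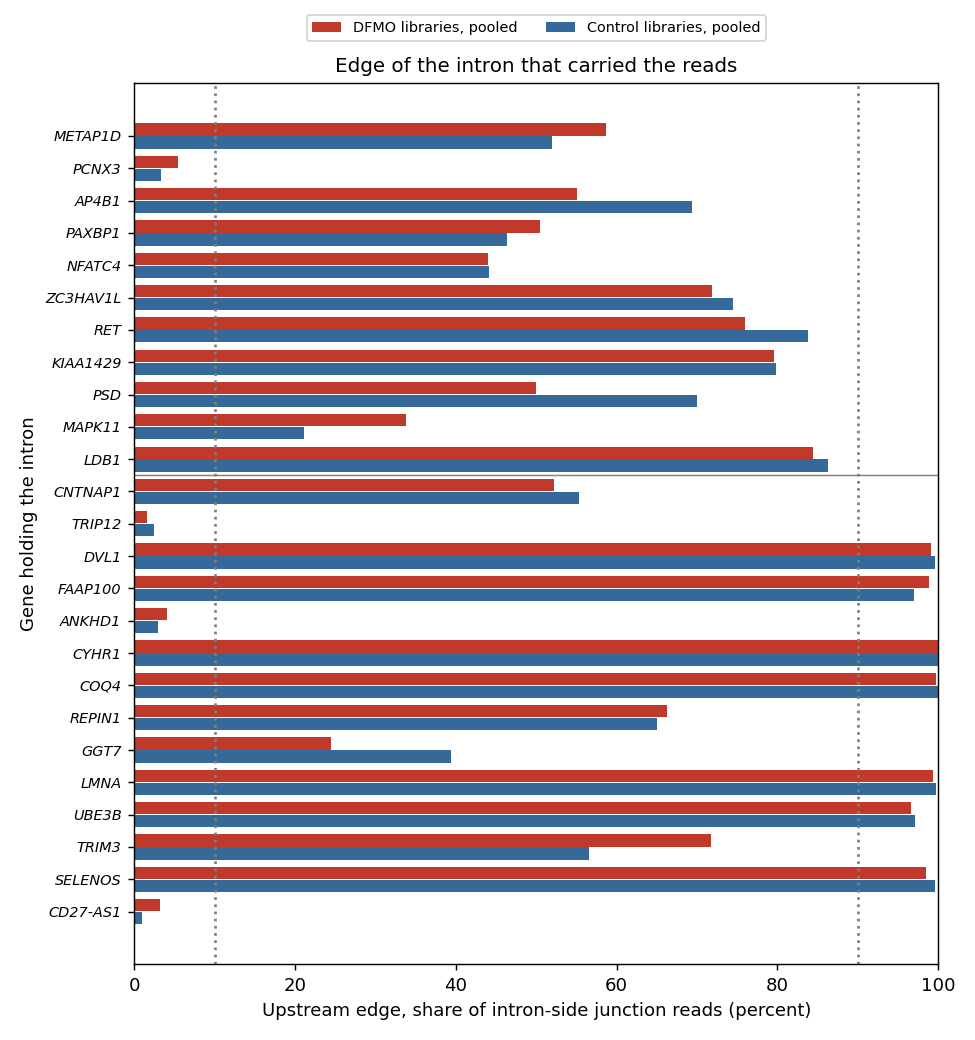
Share of exon-intron junction reads that lay on the upstream edge (percent, pooled over the 3 libraries of a group) for 25 of the called introns, DFMO bars above Control bars, with dotted lines at 10% and 90%. Both groups give nearly the same share in most introns, and 10 of the 14 lower introns, below the grey line, sit beyond a dotted line.

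Introns of genes on a list of known detained introns passed the test upwards in the largest share of the 13 lists used. The list held 36 genes, of which 8 had 9 members and 8 members were tested. Of these, 5 passed the limma test, all higher with DFMO and none by 10 points. Upward passes made up 4.40% of all tested introns and 2.85% of tested members. The median difference over the 8 was 6.16 points, beside 0.33 over all tested introns and -0.16 over all tested members. The list holds genes with detained introns in earlier work, but it was picked with results of these data known, so its count is a description.

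In DDX5, an RNA helicase, the 1236-nt intron (chr17:64500774-64502009) had 14.4%, 13.4% and 11.9% in DFMO libraries and 6.16%, 6.53% and 6.58% in Control libraries, with no overlap (log2 odds 1.14 ± 0.15 SE, limma adjusted p = 1.98e-11). Reads were more over both edges, with 470 upstream and 540 downstream in DFMO libraries and 203 and 268 in Control libraries, whereas joining reads were 3294 and 3420. In HNRNPDL, an RNA-binding protein of the hnRNP family, the 1153-nt intron had 10.4%, 10.5% and 8.84% in DFMO libraries and 5.59%, 4.00% and 5.92% in Control libraries (limma adjusted p = 6.19e-09), and joining reads were lower, with 3487 in DFMO and 4812 in Control libraries. TIA1, a stress-granule and splicing factor, had 15.99%, 11.9% and 10.7% in DFMO libraries and 6.55%, 3.94% and 5.02% in Control libraries (limma adjusted p = 0.0124).

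LUC7L, related to a yeast protein of the U1 particle, had 17.7%, 20.4% and 12.3% in DFMO libraries and 6.08%, 7.30% and 9.81% in Control libraries (limma adjusted p = 0.0136). MAT2A makes S-adenosylmethionine, the methyl donor that also feeds polyamine synthesis, and the retention of its last introns is known to answer to methionine. Its 635-nt intron had 22.3%, 19.3% and 20.1% in DFMO libraries and 17.9%, 14.4% and 17.5% in Control libraries (limma adjusted p = 0.0269). The groups did not overlap in any of these 5. Introns of CCNL1, a cyclin linked to splicing, did not pass, with 28.2% ± 6.97 in DFMO and 18.5% ± 8.28 in Control libraries for the 1795-nt intron and 11.2% ± 2.96 in DFMO and 5.65% ± 3.27 in Control libraries for the 794-nt one. CLK2, a kinase of SR proteins, had 5.92% ± 1.67 in DFMO and 6.70% ± 2.03 in Control libraries. EIF4A2, a helicase of translation initiation whose member was not tested, had 3.26% ± 0.23 in DFMO and 6.56% ± 1.07 in Control libraries. The junction-read level of HNRNPDL (log2 difference -0.28, limma adjusted p = 7.22e-05) and LUC7L (-0.38, adjusted p = 1.18e-04) fell, and that of DDX5 (-0.02), TIA1 (0.08) and MAT2A (0.01) did not pass. The LUC7L, MAT2A and TIA1 results ended without DFMO replicate 1. That of LUC7L also ended without DFMO replicate 2 or Control replicate 1, and that of MAT2A without DFMO replicate 3 or Control replicate 2. Those of DDX5 and HNRNPDL passed without any single library. Without the variance trend, none of these 5 introns passed (limma adjusted p from 0.134 for DDX5 to 0.498 for MAT2A).

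**Figure D4:**
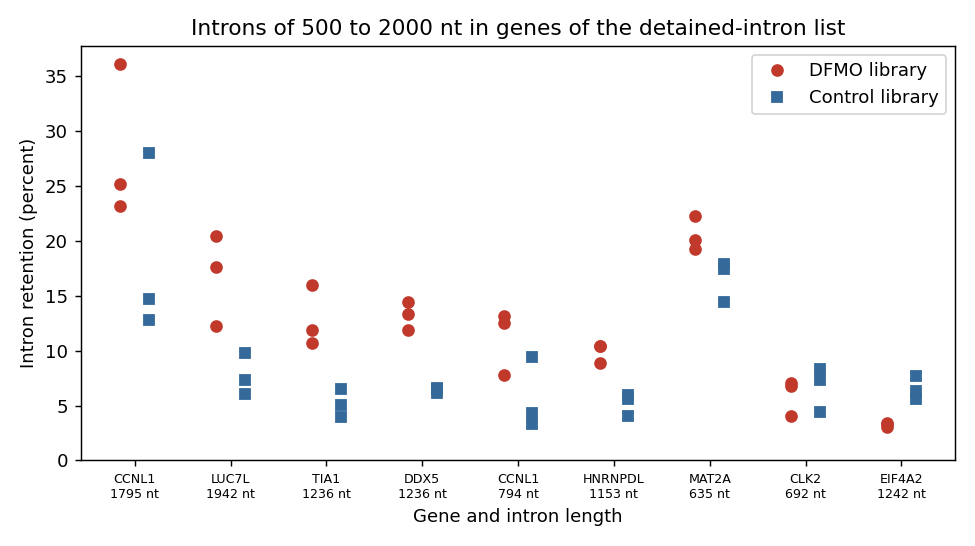
Retention (percent) in each DFMO library (circles) and each Control library (squares) of the 9 introns of 500 to 2000 nt in genes of the detained-intron list, ordered by the difference of means. In DDX5, HNRNPDL, TIA1, LUC7L and MAT2A every DFMO library lies above every Control library, in EIF4A2 every one lies below, and CLK2 and both CCNL1 introns overlap.

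In genes of noradrenergic neuroblastoma identity, 7 members were tested, of which 3 passed upwards, RET and MYCN among them, and 1 downwards. Of all tested introns, 4.40% passed upwards and 4.18% downwards. The 1204-nt intron of MYCN, the amplified oncogene of this line, had 23.02%, 22.9% and 22.97% in DFMO libraries and 19.8%, 19.5% and 19.8% in Control libraries. The difference of 3.27 points was small but far larger than the SD of 0.06 points in DFMO and 0.19 points in Control libraries (log2 odds 0.28 ± 0.05 SE, limma adjusted p = 8.44e-06). Without the variance trend the MYCN intron did not pass (limma adjusted p = 0.592), and with balanced junctions it could not be tested. Edge reads of MYCN were 2745 upstream and 5348 downstream in DFMO libraries and 2515 and 4377 in Control libraries, and its junction-read level did not pass (log2 difference -0.01, adjusted p = 0.672). PHOX2A, a transcription factor of the lineage, had 10.2%, 9.45% and 10.1% in DFMO libraries and 14.2%, 12.6% and 11.7% in Control libraries (limma adjusted p = 0.0421), and its joining reads rose (log2 difference 0.55, limma adjusted p = 4.70e-18). The PHOX2A result ended without any single library but Control replicate 3. Both introns of TBX3, a T-box transcription factor, did not pass.

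In the polyamine list, 4 members in 3 genes were tested. MAT2A is given above. SLC12A9, a transporter-family gene, had 8.69%, 7.15% and 7.74% in DFMO libraries and 18.03%, 19.2% and 12.5% in Control libraries for its 951-nt intron (limma adjusted p = 0.0322, lost without any single library but Control replicate 3). Its 1030-nt intron had 9.57% ± 2.97 in DFMO and 12.95% ± 3.75 in Control libraries and did not pass. KYAT1, an aminotransferase, had 5.41% ± 5.50 in DFMO and 5.63% ± 5.65 in Control libraries.

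In the other lists, counts of passed members stand beside the 4.40% of all tested introns that passed upwards and the 4.18% that passed downwards. Among hnRNPs and other regulators, 15 were tested, 2 passed upwards and 1 downwards: besides HNRNPDL and TIA1, which rose, the 630-nt intron of HNRNPC fell, with 9.75%, 9.95% and 9.76% in DFMO libraries and 11.5%, 11.5% and 12.9% in Control libraries (limma adjusted p = 0.00393, lost without Control replicate 3), with 2238 upstream-edge reads in DFMO and 2761 in Control libraries and 12 and 3 downstream. In the spliceosome list (10 tested), DDX5 rose and DDX39B, a helicase of splicing and export, fell, with 8.57% ± 0.74 in DFMO and 18.05% ± 5.47 in Control libraries (limma adjusted p = 0.0450, lost without any single library but Control replicate 3). In the list of RNA decay, export and surveillance (9 tested), CHTOP, an export adaptor known to regulate an intron of its own RNA, rose for its 1641-nt intron, with 28.7%, 23.3% and 29.2% in DFMO libraries and 21.5%, 21.0% and 17.2% in Control libraries (limma adjusted p = 0.00187). Of 7 tested introns in genes of SR proteins and their kinases, LUC7L alone passed. PRPF4B, a splicing kinase, had 47.3% ± 4.65 in DFMO and 64.1% ± 8.26 in Control libraries without overlap, but missed the threshold (limma adjusted p = 0.0778).

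Among neuronal and synaptic genes, 19 members were tested, and CNTNAP1 and the 866-nt intron of KCNT1, a sodium-activated potassium channel, fell. KCNT1 had 10.7% ± 2.67 in DFMO and 18.3% ± 3.21 in Control libraries (limma adjusted p = 0.0348, lost without DFMO replicate 3 or Control replicate 2 or 3). The median over the 19 was -2.25 points. For the cell cycle and DNA repair, 1 of 26 tested members rose and 0 fell (limma), and for vesicle traffic and autophagy AP4B1 alone rose of 17. None of 35 tested introns in genes of chromatin and transcription, 11 in translation, ribosome and tRNA genes and 2 in mitochondrial genes passed, by limma, and the median differences were -0.84, -0.34 and -2.06 points.

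Reads were next taken apart into those over the intron edges and those joining the exons, each per 1000000 event reads. Over 981 tested members, edge reads rose in 54 and fell in 35, beside 6.22% and 4.29% of introns of every length, and joining reads rose in 93 and fell in 44, beside 8.60% and 6.08%. Without Control replicate 2 the 54 became 32, and without DFMO replicate 3 the 44 became 29. These reads make the percent, so their directions in called members describe the same measurement and are no independent support. The 12 members called higher had more edge reads in 9 cases and fewer joining reads in 4. The 15 called lower had fewer edge reads in 4 (CNTNAP1, DVL1, LMNA and REPIN1) and more joining reads in 6 (ANKHD1, COQ4, GGT7, LMNA, SELENOS and CD27-AS1). The offset of 0.5 reads per 1000000 is large for these counts and understates the folds. In bulk samples, fewer cells with a transcript and less of it per cell cannot be told apart.

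The junction-read level of the host gene, a proxy built from exon junctions on a log2 scale, rose in 3 of the 12 genes with a member called higher and fell in 5, beside 20.5% and 24.9% of 9232 genes. Among them it rose in NFATC4 (0.21 ± 0.04 SE) and PCNX3 (0.14 ± 0.03), and fell in RET (-0.18 ± 0.03), ZC3HAV1L (-0.11 ± 0.03), PAXBP1 (-0.11 ± 0.03), LDB1 (-0.10 ± 0.03) and KIAA1429 (-0.08 ± 0.03). For the 15 genes with a member called lower it rose in 7, led by COQ4 (0.74 ± 0.04) and GGT7 (0.39 ± 0.03), and fell in DVL1 (-0.18 ± 0.03) and LMNA (-0.07 ± 0.03). The 7 falls became 4 with median-of-ratios scaling, and 3 to 5 without single libraries, with 3 without DFMO replicate 3 or Control replicate 1. The other classes of events in these 27 genes gave 63 tested sites, of which 3 were called higher and 3 lower: the RET exons, the PAXBP1 donor pair and the sites in CD27-AS1 and DVL1. Without DFMO replicate 1 these 6 became 3, and without Control replicate 2 they became 2. Over the whole table, 3.45% of cassette exons, 1.16% of alternative acceptors and 2.28% of alternative donors were called.

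On the same proxy, genes of the splicing and RNA surveillance lists passed the test in both directions, as did genes at large, of which 20.5% rose and 24.9% fell. Of 49 measured genes of SR proteins and their kinases, 12 rose and 7 fell, of 72 hnRNPs and other regulators 15 rose and 21 fell, of 112 spliceosome genes 19 rose and 31 fell, and of 60 genes of decay, export and surveillance 10 rose and 15 fell (limma, adjusted p under 0.05 at any size). Their medians, from -0.03 to -0.01, were close to 0. The kinase gene DYRK1B (0.48 ± 0.04 SE), the tri-snRNP gene PRPF6 (0.45 ± 0.03), CIRBP, a cold-inducible RNA-binding protein (0.40 ± 0.04), and SRSF5, an SR protein (0.28 ± 0.03), were among those that rose. HTATSF1 (-0.40 ± 0.04) and SNRNP40 (-0.30 ± 0.04) of the spliceosome, PAPOLA, a poly(A) polymerase (-0.37 ± 0.03), and HNRNPM (-0.27 ± 0.03) were among those that fell. These examples were chosen after their values were seen.

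Mean retention over the 1081 members was 16.1%, 15.9% and 14.9% in DFMO libraries and 15.8%, 15.9% and 16.4% in Control libraries. The groups overlapped, and DFMO replicate 3 was the lowest. Over 1329 introns under 500 nt the means were 14.7%, 14.8% and 14.0% in DFMO libraries and 16.2%, 15.9% and 16.8% in Control libraries, with no overlap. Over 1133 introns above 2000 nt they were 15.6%, 15.6% and 14.9% in DFMO libraries and 14.9%, 14.6% and 15.1% in Control libraries. The mean of the members less that of the shorter introns was 1.16 ± 0.25 points in DFMO and -0.27 ± 0.22 in Control libraries (SD, n = 3 each), without overlap, and less that of the longer introns it was 0.29 ± 0.23 in DFMO and 1.17 ± 0.17 in Control libraries, again without overlap. The DFMO minus Control difference was -0.39 points for the members, -1.82 for the shorter and 0.49 for the longer introns. That of the members turned to 0.56 when introns were picked by the mean over all 6 libraries in place of Control. By edge, the both-edge members averaged 15.7% ± 0.86 in DFMO and 15.7% ± 0.49 in Control libraries, the upstream-only members 17.1% ± 0.15 in DFMO and 18.6% ± 0.45 in Control libraries, and the downstream-only members 14.03% ± 0.12 in DFMO and 14.9% ± 0.22 in Control libraries. Picked by the mean over 6 libraries, the both-edge introns were 1.02 points higher in DFMO libraries, the upstream-only introns differed by -0.79 points, and the downstream-only introns differed by -0.29 points.

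**Figure D5:**
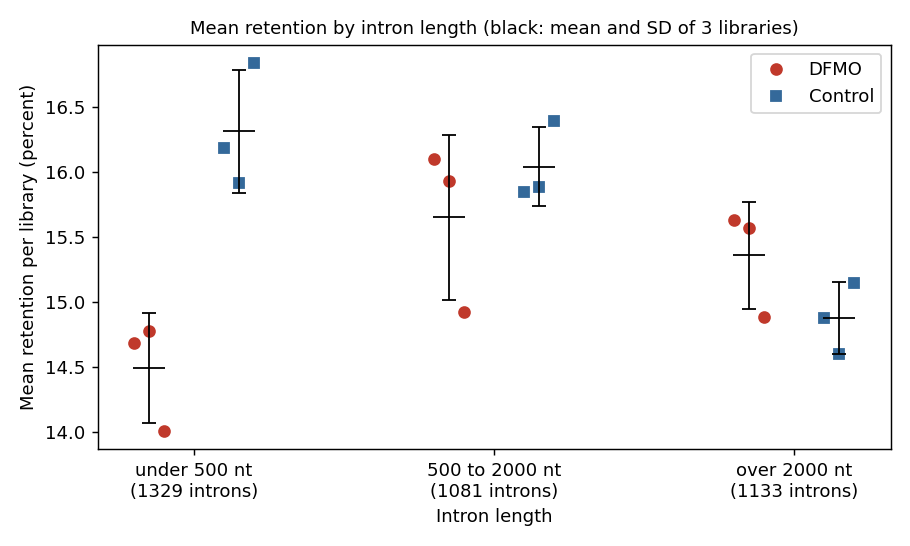
Mean retention per library (percent, axis not from 0) of introns under 500 nt, of 500 to 2000 nt and over 2000 nt, DFMO (circles) left of Control (squares), with black bars for the mean and SD of 3 libraries. DFMO lies below Control in the shortest class, overlaps it at 500 to 2000 nt with means of 15.7% and 16.04%, and overlaps it over 2000 nt.

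At the edge of the rule, the members with the lowest Control means were in EME1 (11.9% ± 3.48 in DFMO, 5% ± 3.78 in Control), FASTK (5.83% ± 0.84 in DFMO, 5% ± 0.89 in Control) and FBXW7 (9.72% ± 3.40 in DFMO, 5.003% ± 2.44 in Control). Just outside were introns of NEK9 (6.13% ± 1.40 in DFMO, 4.997% ± 1.19 in Control) and TRMT61B (6.25% ± 2.94 in DFMO, 4.997% ± 2.97 in Control). The highest Control means were those of SPPL2B (90.6% ± 5.46 in DFMO, 94.4% ± 3.25 in Control), FAM156A (97.9% ± 1.37 in DFMO, 94.2% ± 7.86 in Control) and GOSR2 (96.8% ± 1.71 in DFMO, 94.2% ± 2.85 in Control), and 11 annotated transcripts keep the GOSR2 intron whole. The 100 members that were not tested had a mean over 6 libraries under 5% in 97 cases and above 95% in 3, with a median of 2.82% in DFMO and 5.54% in Control libraries, so members that fell from just above 5% are missing from the counts of passed introns.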

How the data were processed

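Stranded mRNA libraries of 3 DFMO and 3 Control samples of SKNBE2 cells were sequenced as single reads of 100 nt, per the labels' protocols. The authors deposited 1 table with a percent of inclusion per event and library, and a quality text with coverage score and read numbers; its build is GRCh38, per the submitters' processing notes, and neither aligner nor quantifier is given in the sources used here. Lengths and quality text were deposited by the authors as other, non-scaled columns. Percents recomputed from the 2 read numbers after the @ sign lay within 0.5 points, but those numbers are the total split by the percent, so this is no independent check.

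Members were chosen by the stated rule. The members and gene lists were chosen with earlier results of these data known. log2 odds, with 0.5 added to each read number, went into limma 3.58.1 under R 4.3.3 (robust empirical Bayes, variance trend on the expected counting variance, two-sided, Benjamini-Hochberg over 3684 introns); edge and joining reads as log2(reads per 1000000 + 0.5), and the gene proxy as the mean over exon events of log2(1 + reads per 1000000), each with limma. The gene proxy also moves with exon inclusion. Tests were run on simulated data first. The order of the 2 edges in the quality text was settled from introns with an annotated exon over 1 edge only. Named introns were the called ones without overlap, 1 per gene, the members of the polyamine and detained-intron lists, up to 3 called per list and the neighbours of the threshold. List members named because they passed at any size, the host events and the other values of those lists beyond that rule were chosen after their values were seen. Alternatives were other read minimums, filters, offsets, scales, tests, scalings and left-out libraries. Libraries with the same number did not deviate together (correlations 0.01, 0.003 and -0.03). No genome sequence was used. Sequences came from GENCODE 29 transcripts and were picked for the results they bear on, after values were seen, and base composition over the set was not compared because too few members had sequence. Introns of KIAA1429 and CYHR1 are given without sequence. Some genes and sequences that the rule names are not reported here.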

Additional observations from a re-analysis of the deposited data

How the results depend on the processing

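Of the 27 calls, 27 held with the filter on the Control mean and with an offset of 0.1, all 26 that could be tested with 20 reads, 25 of 27 on the percent scale and 27 of 27 with the quasi-binomial test. The counts called higher and lower became 7 and 9 with no filter on the mean percent (88789 introns tested), 0 and 0 without the variance trend, 1 and 2 with balanced junctions (3 of the 27 could be tested), 28 and 40 with no size minimum, and 6 and 7 at 15 points. Restricted to introns with reads on both edges, an alternative chosen after seeing the data, 5 were called lower. Without single libraries they ran from 7 to 18 higher and from 9 to 17 lower. The mean retention difference of the members turned to 0.56 points with introns picked by the 6-library mean, and against shorter introns it was 1.18 with the median and 1.82 with the 6-library mean; left-out libraries moved it from -0.62 to -0.03, from 1.30 to 1.55 against shorter and from -0.97 to -0.75 against longer introns. Members with edge reads higher ran from 32 to 48 and with joining reads lower from 29 to 42 without single libraries. Host genes whose level fell numbered 4 with median-of-ratios scaling and 3 to 5 without single libraries, and called exons and splice sites of host genes 2 to 5. Same-numbered libraries share only a number: with the replicate block, 11 members were called higher and 15 lower, edge reads rose in 36 and fell in 27, and host genes fell in 4. Without the trend, no member call held; the cause was not tested. With a median of 87.3 reads per library and member, small differences at low retention were not detectable.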
